A study of Mus musculus with 4 samples.

Results

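The genes described here break down heme and take up, store, export or sense iron. There were 10 of them, Hmox1, Blvrb, Ftl1, Fth1, Tfrc, Slc40a1, Slc11a2, Hamp, Lcn2 and Slc48a1, among 16862 genes usable on all 4 arrays. Members were found by the gene names and accessions of the array's probes, and all 10 were on the array with 12 probes in all. Of these genes, 8 had 1 probe, and Slc11a2 and Slc48a1 had 2 each, of which the brighter represents the gene.

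Mouse skin was sampled for RNA 48 h after light had been used to set off a short burst of reactive oxygen species, a photodynamic treatment. The tail treated animals received methyl aminolevulinate cream, 2.5 h of darkness and red light of 636 nm at a dose of 10 J/cm2, and the tail control animals had no treatment. The back treated animals were shaved and received the same cream, dark period and wavelength at 2.5 J/cm2, and the back control animals had no treatment. Whether the untreated animals were shaved, and the strain, sex and age of any animal, are not given in the sources used here. The design lists 3 animals per group, but each group was represented by 1 array, and whether RNA of the animals was pooled is not stated. There were thus no replicates, no test was possible, and every difference below compares single arrays. Dose, shaving and body site all differed between the tail and back pairs and cannot be told apart. Shaving may also have differed within the back pair, where it could not be told apart from the treatment.

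Heme oxygenase opens the heme ring and releases iron, carbon monoxide and biliverdin, and biliverdin reductases turn biliverdin into bilirubin. Free iron feeds the formation of reactive oxygen species, so cells hold it inside ferritin or send it out through ferroportin, the product of Slc40a1. Hepcidin, the product of Hamp, is a hormone made mainly in the liver that binds ferroportin and takes it off the cell surface. Methyl aminolevulinate is itself converted by the heme pathway into protoporphyrin IX, the molecule that absorbs the light and the last step before iron is inserted to make heme. Ferritin, ferroportin, Tfrc and Slc11a2 transcripts also carry iron-responsive elements, through which iron acts on translation or RNA stability, and an RNA array reads the amount of RNA alone.

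The stretches upstream of 3 members are shown. RNA of Lcn2 and Ftl1 differed between treated and untreated back skin, and that of Hamp between the untreated skins, at signals near the lower limit. Slc40a1 and Hmox1 also differed in the back but, like Slc11a2 and Slc48a1, had no entry in the RefSeq table used. The stretches shown are the 250 bases before the annotated start, 5′ to 3′ on the gene's own strand, from RefSeq on GRCm38.p6. All 3 genes lie on the minus strand, Lcn2 with chr2:32387740-32387989, Hamp with chr7:30944030-30944279 and Ftl1 with chr7:45459887-45460136. Capitals mark matches to the motifs named after the sequences.
Lcn2: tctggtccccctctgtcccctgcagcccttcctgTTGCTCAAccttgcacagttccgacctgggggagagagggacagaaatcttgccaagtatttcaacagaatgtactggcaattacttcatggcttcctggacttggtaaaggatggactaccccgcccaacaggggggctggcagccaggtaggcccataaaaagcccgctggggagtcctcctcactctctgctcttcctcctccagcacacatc
Hamp: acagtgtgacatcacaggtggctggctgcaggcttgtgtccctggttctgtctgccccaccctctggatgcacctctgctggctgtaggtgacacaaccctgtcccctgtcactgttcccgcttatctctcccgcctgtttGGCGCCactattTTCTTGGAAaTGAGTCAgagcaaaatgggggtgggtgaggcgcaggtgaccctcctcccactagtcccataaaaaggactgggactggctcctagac
Ftl1: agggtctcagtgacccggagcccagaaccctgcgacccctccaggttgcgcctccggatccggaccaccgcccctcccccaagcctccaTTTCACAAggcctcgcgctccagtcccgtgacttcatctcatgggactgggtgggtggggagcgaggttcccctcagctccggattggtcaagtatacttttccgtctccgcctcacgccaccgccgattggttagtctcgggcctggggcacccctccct

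A search of both strands used 6 motifs. In Hamp the capitals are, in order, a BMP response element (GGCGCC) 109 to 104 bases before the start, a STAT motif (TTCNNNGAA) at 97 to 89 and an AP-1 motif (TGANTCA) at 87 to 81, with no overlap. In Lcn2 the capitals are a C/EBP motif (TTNNGNAA) at 216 to 209, and in Ftl1 one at 161 to 154. Of the members not shown, a Tfrc window also held the BMP response motif, and both Fth1 windows held C/EBP motifs. These letters are short and common, and of 32851 windows of the same length in the RefSeq table, 9.59% held the BMP response motif, 7.02% STAT, 6.75% AP-1 and 36.8% C/EBP. The antioxidant response core (TGACNNNGC), in 10.2% of all windows, and an NF-kB motif, in 3.86%, matched none of the 9 windows of the 6 members in the table, Lcn2, Hamp, Ftl1, Fth1, Blvrb and Tfrc. A match or its lack describes these letters in this window, and the arrays measured no binding.

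Each level below is the background-corrected spot signal divided by the 75th percentile of the signals on that array, given as a multiple of it. A difference is on the log2 scale, so 1 is a 2-fold difference, and that size is the threshold for counting a gene as higher or lower. The scanner's own error of such a difference was 0.204 for all members but Hamp, and it covers spot reading and leaves out variation between animals. The arrays differed in brightness, with a 75th percentile of 7261 on the tail control array against 909 to 1860 on the others, and 1667 genes were saturated on the tail control array against 330 to 666. Across all genes with a value, bounds included, the median difference was 0.33 in the tail and -0.01 in the back, and over genes measured on both arrays it was 0.34 and 0.03. Krt5, Krt14, Krt1 and Krt10, the main keratins of epidermis, were saturated on all 4 arrays, and the labels say tail skin where the extraction protocol says tail epidermis.

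Slc40a1, the iron exporter ferroportin, differed more than any other member with treatment, and in opposite directions in the 2 skins. Its level was 5.85 in tail control and 23.8 in tail treated skin, and 8.76 in back control and 1.39 in back treated skin. Tail treated was therefore the highest array and back treated the lowest, with both untreated skins between them. In the tail it was 4.06-fold higher with treatment (log2 difference 2.02), and 93.9% of measured genes had a smaller difference. In the back it was 6.32-fold lower (-2.66), and 1.31% of measured genes lay below it. The back difference minus the tail difference was -4.68, with a scanner error of 0.289. When the arrays were scaled on the spike-in controls instead, the tail difference was -0.05 and the back difference -3.12, so the tail direction depended on the scaling. Against the median of all genes under the same spike-in scaling, the tail difference was 1.58. On the 75th percentile scale it was 1.69 above the median of all genes in the tail and -2.65 from it in the back. Cyclic loess and quantile normalization gave 1.34 and 1.44 in the tail and -2.64 and -2.46 in the back.

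Hmox1, the inducible heme oxygenase and a standard marker of oxidative stress, was lower in treated back skin at 48 h. On the log2 scale its level was 4.32 in back control and 2.69 in back treated skin, a 3.09-fold lower value (-1.63) with 4.75% of measured genes below it. In the tail the control spot was saturated, at a log2 level of 3.32 or more, and the treated level was 3.90. The tail difference on this scale was thus at most 0.58, and neither its sign nor its size can be read. The back value ran from -1.19 with quantile normalization to -2.09 with spike-in scaling.

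Blvrb, a biliverdin reductase that also acts as a flavin reductase, had levels of 6.32 and 9.94 in tail control and tail treated skin, and 10.8 and 5.56 in the back. The differences were 0.65 in the tail and -0.96 in the back, both within 2-fold. Back control was the highest array and back treated the lowest. The tail sign was not stable, since cyclic loess gave -0.12, whereas the back difference stayed between -0.72 and -1.42 in every setting run.

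Slc48a1 (HRG1), which moves heme out of the lysosome, was close to level with treatment, at 6.36 and 5.72 in the tail and 2.23 and 2.11 in the back. These differences were -0.15 and -0.08, and those of the second probe 0.20 and -0.21. Its untreated levels stood further apart, which is described with the untreated skins.

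**Figure D1:**
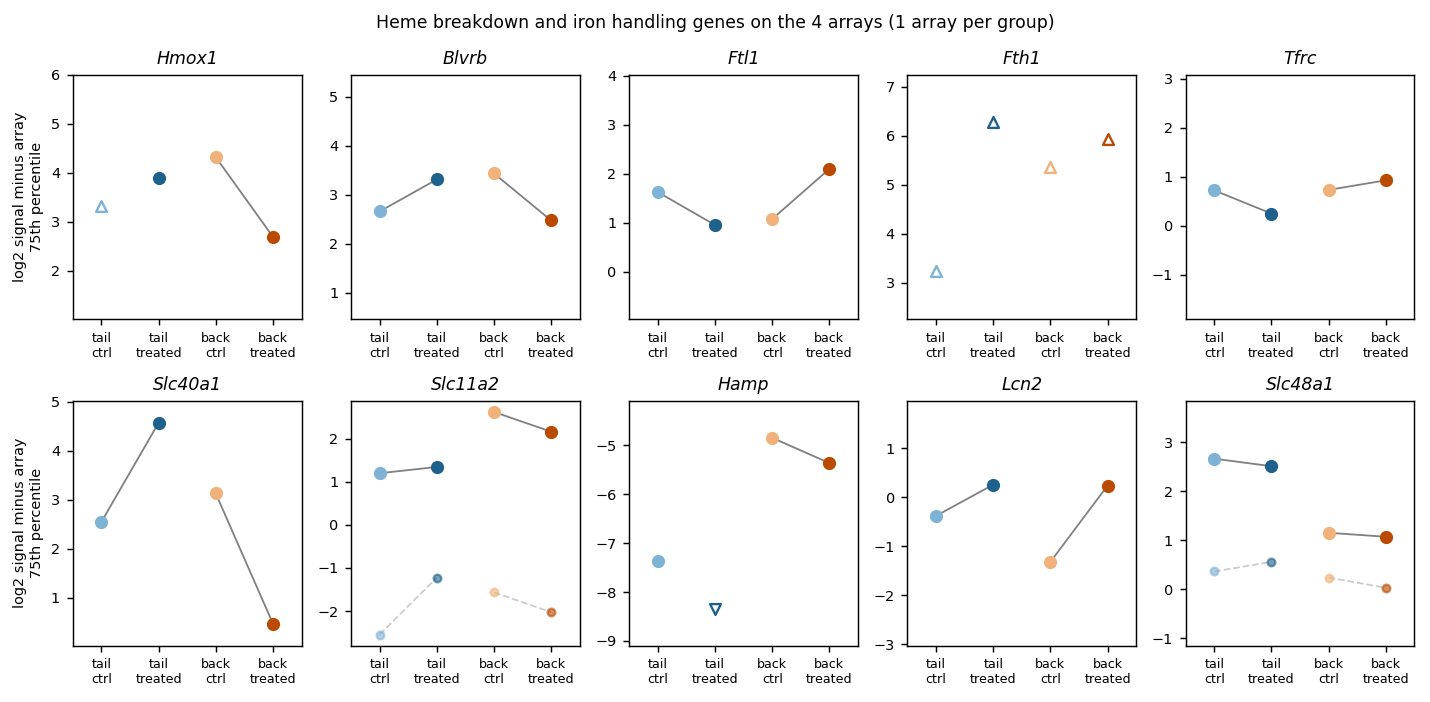
Level of each member on the 4 arrays, as log2 of the multiple of the array's 75th percentile, 1 panel per gene. Filled circles are measured spots, open upward triangles saturated spots and open downward triangles spots not well above background, with any second probe in fainter marks. Slc40a1 is highest in tail treated skin (23.8 times the 75th percentile) and lowest in back treated skin (1.39 times), and all 4 Fth1 points are saturated.

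Ferritin is built from light chains, encoded by Ftl1, and heavy chains, encoded by Fth1, which oxidise iron as it enters the shell. The Ftl1 level was 3.08 in tail control, 1.94 in tail treated, 2.11 in back control and 4.28 in back treated skin. Back treated was the highest array and tail treated the lowest. Ftl1 was 2.03-fold higher with treatment in the back (1.02) and lower by less than 2-fold in the tail (-0.67). The back value lay at the 2-fold threshold, and it was 0.96 with arrays centred on the median of detected probes and 0.56 with spike-in scaling. Fth1 was saturated on all 4 arrays, with signals of 67969 in untreated and 70151 in treated tail skin and 76102 and 73346 in the back, so it gave no value. Ferritin genes have many near-identical pseudogene copies in the mouse genome, and whether the probes separate them was not tested.

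Tfrc, the transferrin receptor through which most cells take up iron, was the best measured member, with 10 spots on each array. Its level was 1.65 in tail control, 1.19 in tail treated, 1.66 in back control and 1.90 in back treated skin. Repeated spots had SDs of 0.080 to 0.104 on the log2 scale. The difference was -0.47 in the tail and 0.20 in the back, with SDs over spots of 0.130 and 0.133. With spike-in scaling the back difference was -0.26.

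Slc11a2 (DMT1), which carries ferrous iron across membranes, had levels of 2.30 and 2.54 in the tail and 6.16 and 4.49 in the back. Treated minus control was 0.15 in the tail and -0.46 in the back. Its dimmer second probe also gave -0.46 in the back but 1.32 in the tail, so the probes disagreed there by more than 2-fold. The tail value of the brighter probe was below the scanner error and was -0.28 with cyclic loess, so it had no stable direction.

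Hamp was near the lower limit of the arrays. Its signals were 44.0 in tail control, 64.5 in back control and 29.2 in back treated skin, where the lowest signals well above background were 22.3, 20.1 and 17.3. In tail treated skin its signal of 2.80 was not well above background, and no tail difference was given. The back difference was -0.51 with a scanner error of 0.285, and normexp background correction turned it to 0.12. Hamp has a close paralog, Hamp2, and whether the probe separates them was not tested.

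Lcn2, or lipocalin 2, binds the iron carriers (siderophores) of bacteria and is made by neutrophils and by inflamed epithelium. Its level was 0.769 in tail control, 1.20 in tail treated, 0.401 in back control and 1.18 in back treated skin. Both treated arrays lay above both untreated ones. The difference was 1.56 in the back, or 2.94-fold, and 0.64 in the tail, within 2-fold. With spike-in scaling these were 1.098 and -1.43, so the tail direction was not stable. The neutrophil list, of which 9 of 10 genes were on the array, had a summed level of 42.7 in back control and 109 in back treated skin, and of 8.63 and 144 in the tail. Nearly all of this was S100a8 and S100a9, which keratinocytes also make and which were saturated on both treated arrays. Of its genes with a value, 3 of 5 were higher in the back (2 as bounds) and 5 of 6 in the tail (3 as bounds). Of all genes, 13.6% were higher in the back and 27.2% in the tail. Retnlg was higher by 5.47 in the back and by at least 3.81 in the tail, and Csf3r by at least 4.58 in the back. Elane was higher by 3.02 in the tail, and Mpo was 1.36 there and -0.16 in the back. Cxcr2 was -0.42 in the tail and -0.79 in the back, and Ngp and Camp were not well above background on any array. The part of neutrophils in the Lcn2 values was not tested, and in whole tissue more RNA per cell and more cells of a type cannot be told apart.

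**Figure D2:**
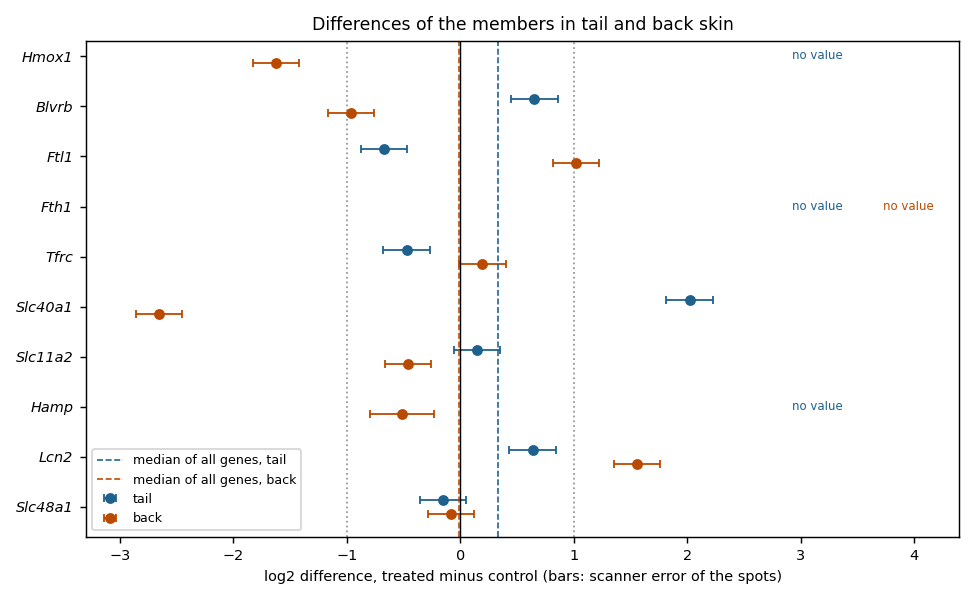
Log2 differences of the members for tail treated minus tail control and back treated minus back control. Bars are the scanner error, dotted lines mark the 2-fold threshold and dashed lines the median of all genes. Slc40a1 stands at 2.02 in the tail (-0.05 with spike-in scaling) and -2.66 in the back, and Lcn2 at 0.64 (-1.43 with spike-in scaling) and 1.56.

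In the tail pair, 1 of the 7 members with a value, Slc40a1, was at least 2-fold higher and none was lower, where 33.7% of all genes tested passed the threshold in either direction, 27.2% by being higher and 6.55% by being lower. The median over the members was 0.15, below the 0.33 of all genes. Hmox1, Fth1 and Hamp had no value. In the back pair, 4 of 9 members passed, Ftl1 and Lcn2 higher and Hmox1 and Slc40a1 lower, where 26.2% of all genes did, 13.6% higher and 12.6% lower. The members' median was -0.46 against -0.01. Of the 7 members measured in both skins, 5 had opposite signs (Blvrb, Ftl1, Tfrc, Slc40a1 and Slc11a2) and 2 the same (Lcn2 and Slc48a1), where 6022 of 12037 genes with both values had opposite signs. With cyclic loess, 3 of 9 members had opposite signs (Slc40a1, Ftl1 and Tfrc), against 48.3% of all genes. Slc40a1 was higher in the treated tail and lower in the treated back, and Ftl1 and Tfrc had the reverse signs. Under spike-in scaling the 7 tail differences were all below 0.

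The untreated skins were compared as well, back control minus tail control, and each treated pair shares 1 of these arrays. Of 8 members with a value, Hamp and Slc11a2 were at least 2-fold higher in back skin and Slc48a1 lower, where 44.6% of all genes passed, 27.4% higher and 17.2% lower. Hamp was 5.72-fold higher in untreated back skin (2.52, scanner error 0.273), at signals near the lower limit. Before scaling its signals were 44.0 in tail control and 64.5 in back control, on arrays with 75th percentiles of 7261 and 1860. The size of the Hamp difference thus depends on the scaling, and it was 1.69 with spike-in scaling. Slc11a2 was 2.68-fold higher (1.42, second probe 0.98), and within 2-fold with cyclic loess (0.99) and spike-in scaling (0.60). Slc48a1 was 2.85-fold lower (-1.51), but its second probe gave -0.12, so the difference rests on 1 probe. Lcn2 (-0.94), Blvrb (0.78), Slc40a1 (0.58), Ftl1 (-0.55) and Tfrc (0.01) were within 2-fold.

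The members were set beside 67 other genes of heme and iron metabolism, of which 63 were on the array. Those with a value numbered 52 in the tail, of which 11 were at least 2-fold higher and 7 lower. Of all genes tested there, 27.2% were higher and 6.55% lower. The median of the pathway genes was 0.34 against 0.33 for all genes. In the back there were 57, of which 17 were higher and 9 were lower, where 13.6% and 12.6% of all genes were. The pathway genes had a median of 0.37 there, against -0.01. The counts by role below are of few genes each and stand beside these same shares of all genes.

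Among the partners of the exporter, Heph (hephaestin), the oxidase that loads exported iron onto transferrin, had the same signs as Slc40a1. Its level was 1.84 and 3.85 in tail control and treated skin and 4.43 and 0.874 in the back, differences of 1.06 and -2.34. The second Heph probe gave 0.45 and -2.43, and with cyclic loess the tail value was 0.82. Slc11a1 (NRAMP1), a transporter of the phagosome of macrophages and neutrophils, was higher in both, by 1.58 and 3.54, from levels of 0.00673 and 0.0276. With spike-in scaling the tail differences of Heph and Slc11a1 were -1.004 and -0.49, and with cyclic loess that of Slc11a1 was 0.94.

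Macrophages recycle heme iron, and markers of these cells were read beside Slc40a1 and Hmox1. Over the 9 of 10 markers on the array, the summed level was 0.503 in tail control and 1.07 in tail treated skin, and 2.94 and 8.23 in the back. At least 2-fold higher were 4 of 7 with a value in the tail and 4 of 8 in the back, and none was lower. In the back Mrc1 was higher by 3.34, Cd14 by 2.40 and Lyz2 by 2.17, while Adgre1 (0.31), Marco (-0.57) and Csf1r (-0.62) were within 2-fold. Most of the sum in treated back skin was Lyz2, at 1.13 in back control and 5.09 in back treated skin, a gene that neutrophils also express. In the tail Mrc1 and Spic were not well above background. Markers of other tissues also differed. In the tail 4 of 4 adipocyte, 4 of 4 endothelial and 4 of 5 muscle markers with a value were at least 2-fold higher, with medians of 2.11, 1.81 and 1.74. Of all genes, 27.2% were higher in the tail and 13.6% in the back. Spike-in scaling moved the median of all genes in the tail by -1.96, and the markers were not read under it. In the back 1 of 5 adipocyte, 2 of 4 endothelial and 3 of 4 muscle markers were higher. The suprabasal keratinocyte genes Krt2 and Ivl were -6.54 and -1.98 there, while Krt1, Krt10 and Lor were saturated on both back arrays and gave no value. Of basal keratinocyte markers with a value, 2 of 3 were higher in the back, and the 1 in the tail, Itga6, was -2.05. Of wound keratinocyte markers, 2 of 3 were higher in the back and 2 of 2 in the tail. Of fibroblast markers, 3 of 6 were higher and 1 lower in the back, and 3 of 5 were higher in the tail. The part of any of these cells in the Slc40a1 and Hmox1 values was not tested.

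Red blood cell markers, 6 of 8 on the array, had a summed level of 0.874 in tail control and 13.2 in tail treated skin, and of 1.89 and 3.37 in the back. All 4 with a value were at least 2-fold higher in the tail, with a median of 2.74, where 27.2% of all genes were higher. In the back 1 of 4 was higher, with a median of 0.26, where 13.6% of all genes were. Spike-in scaling moved the median of all genes in the tail by -1.96, and these markers were not read under it. Epb42 was not well above background on any array. The part of blood in the heme and iron values was not tested.

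In heme and hemoglobin uptake, 3 of 7 genes with a value were higher and 1 lower in the tail, and 3 and 2 of 7 in the back. Cd163, the scavenger receptor for haptoglobin with hemoglobin, was higher by 3.21 in the tail (2.51 with cyclic loess), at levels of 0.00405 and 0.0373. Its tail control signal was near the lower limit of the brightest array, so the size of this difference depends on the scaling. In the back Cd163 was at least 39.5-fold higher, with a control spot not well above background. Hp (haptoglobin), which binds free hemoglobin, was at least 28.6-fold higher in the tail, where its control spot was not well above background. In the back Hp was higher by 2.76. Slc46a1, a folate carrier that also moves heme, was 0.75 in the tail and -2.37 in the back.

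In iron uptake, 2 of 10 genes were higher and 1 lower in the tail, and 4 and 2 of 10 in the back. Steap1, of a family that includes ferric reductases, stood at 0.188 in untreated and 0.275 in treated tail skin, and at 0.136 and 3.55 in the back. It was 26.2-fold higher in the treated back (4.71, second probe 4.37) and 0.55 in the tail, where the second probe gave -0.43. Steap2, a ferric reductase of the same family, was 3.38 in the back, with a second probe at least 7.26-fold higher, and -1.02 in the tail, where that probe gave 0.03. Tfr2, a second transferrin receptor known as an iron sensor, was -2.36 in the back and 0.93 in the tail. Ltf (lactoferrin), an iron-binding protein of neutrophil granules and secretions, was at least 2.90-fold higher in the treated back, at a level of 0.0314. It had no value in the tail, and its second probe was not well above background on any array.

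Of the 3 genes of iron sensing, 2 were at least 2-fold lower in the tail and 3 were higher in the back. Ireb2, an RNA-binding protein that holds iron-responsive elements, was -1.22 and 1.01 (second probe -0.33 and 0.49). Fbxl5, which marks Ireb2 for breakdown, was -1.16 and 1.58, with its other probes at 0.35 and -1.09 in the tail and at 1.11 and 1.47 in the back. Aco1, the related protein that is also an aconitase, was 0.03 and 1.46, and its second probe gave 1.64 and 0.26.

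**Figure D3:**
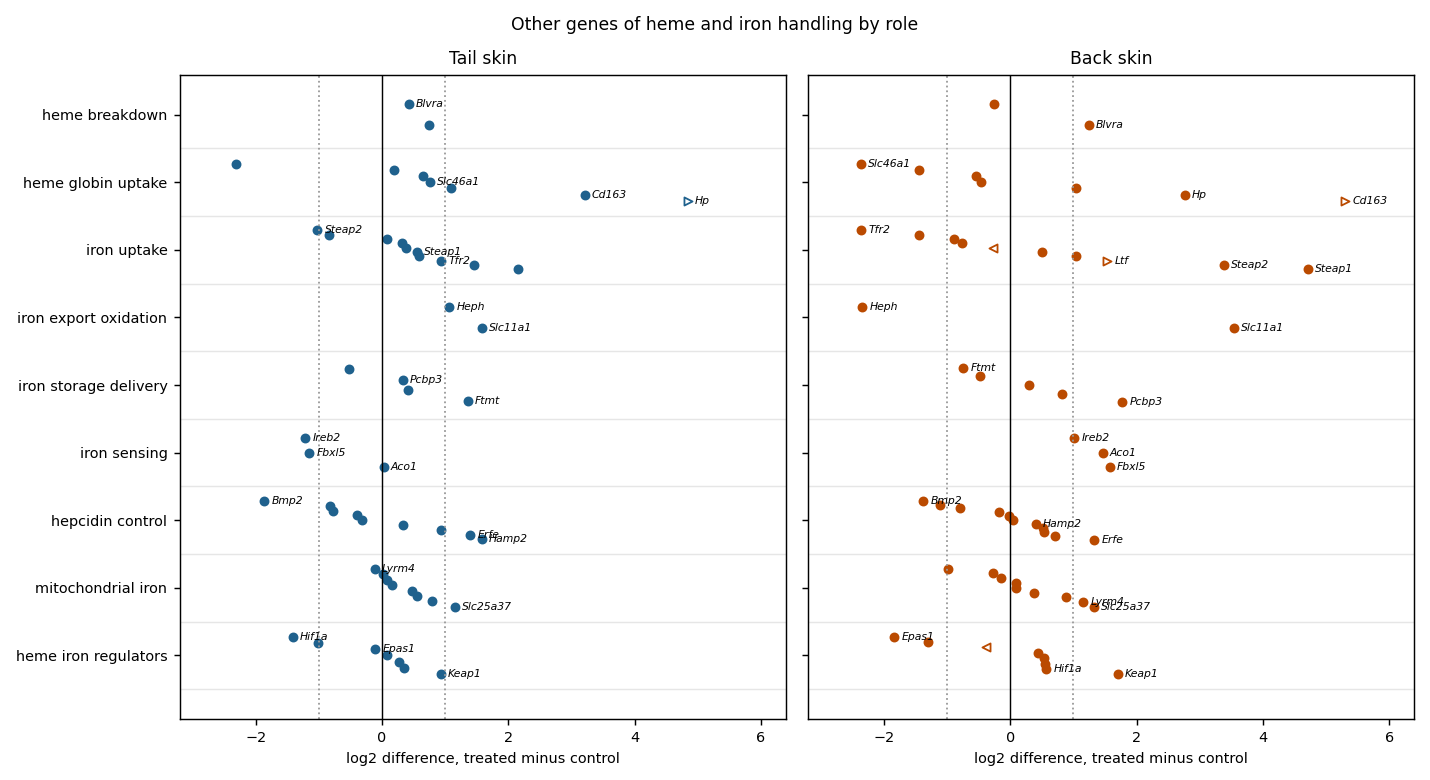
Log2 differences of the other heme and iron genes, members left out, grouped by role, for the tail pair and the back pair. Open triangles are bounds and dotted lines mark the 2-fold threshold. Heph stands at 1.06 in the tail (-1.004 with spike-in scaling) and -2.34 in the back, the signs of Slc40a1, which is not drawn here.

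In the control of hepcidin, 2 of 9 genes were higher and 1 lower in the tail, and 1 and 2 of 11 in the back. Bmp2, a ligand of the BMP receptors that raise Hamp, was -1.87 in the tail and -1.38 in the back. Erfe, an erythroid hormone that lowers Hamp, was 1.40 and 1.33. Hamp2, the paralog of Hamp, was 1.58 and 0.40. Among regulators of heme and iron genes, none of 7 was higher and 2 lower in the tail, and 1 and 2 of 8 in the back. Keap1, which holds Nrf2 (Nfe2l2) in check, was 0.93 and 1.70. Epas1, a hypoxia factor, was -0.11 and -1.84, and Hif1a -1.42 and 0.57.

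In iron storage and delivery, Ftmt (mitochondrial ferritin) was 1.35 in the tail and -0.75 in the back (second probe 2.44 and 0.32), and 1 of 4 and 1 of 5 genes with a value were higher. Pcbp3, of the family that hands iron to ferritin, was 0.33 and 1.78. In mitochondrial iron, 1 of 8 and 2 of 9 genes were higher and none was lower. Slc25a37 (mitoferrin 1) was 1.16 and 1.32, and its second probe gave 0.53 and 1.09. With cyclic loess the tail values of Slc25a37 and Ftmt were within 2-fold, at 0.60 and 0.84. Lyrm4, which takes part in building iron-sulfur clusters, was -0.12 and 1.16. Blvra, the other biliverdin reductase, was 0.43 in the tail and 1.24 in the back, where Blvrb was -0.96.

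The genes with the pattern most like 4 of the members were found by the root mean square difference of the log2 levels over the 4 arrays, after removing each gene's mean and leaving out clone and predicted-gene names. For Slc40a1 they were Adcyap1 (0.203), Ephb1 (0.222), Il1f10 (0.266) and Slc10a4 (0.296). For Lcn2 they were Dtwd2 (0.00618), Nadk (0.0212), Tradd (0.0411) and Itsn1 (0.0464). For Tfrc they were Acin1 (0.0242), Nup188 (0.0457), Tmem70 (0.0462) and Ddx20 (0.0476). For Hmox1, with its saturated tail control spot, they were Mgst2 (0.0596), Sdr9c7 (0.0712), Fmn1 (0.0729) and Triobp (0.0890). The search ran over 11112 genes, and over 11113 for Hmox1, with 4 points per gene.

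**Figure D4:**
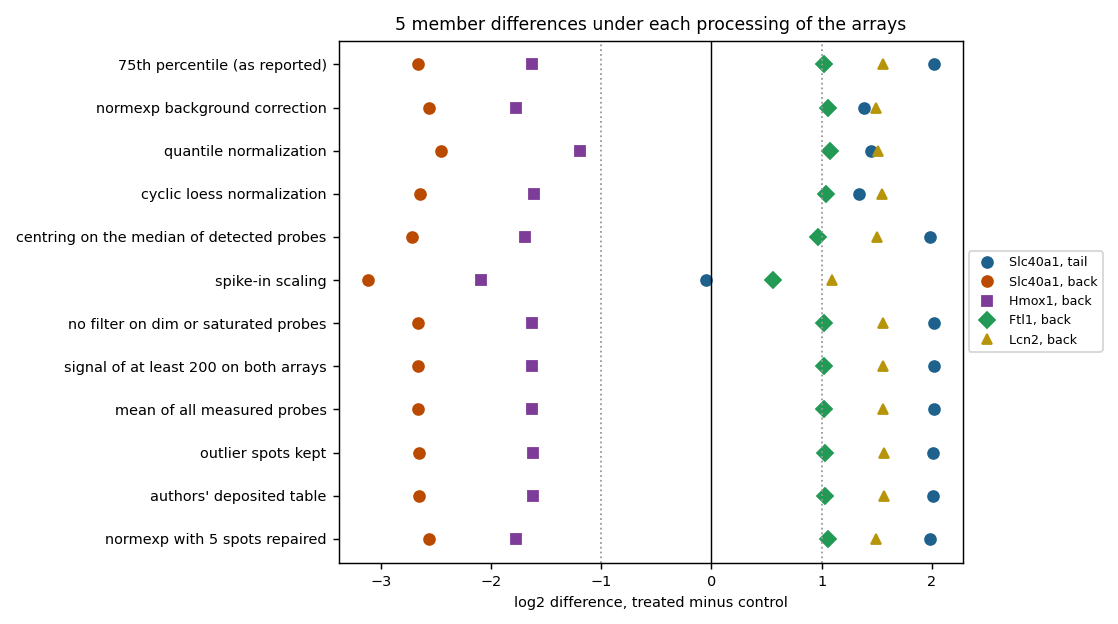
Log2 differences of Slc40a1 in the tail and back, and of Hmox1, Ftl1 and Lcn2 in the back, under each way of processing the arrays. The Slc40a1 tail value runs from 2.02 down to -0.05 with spike-in scaling, and the back value stays between -2.46 and -3.12.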

How the data were processed

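Total RNA (200 ng) from each of 4 groups was labelled with Cy3 and hybridised to 1 array per group, all on 1 slide, per the labels' protocols. The deposited values are processed signals, the intensity of each spot corrected for background by Agilent Feature Extraction 10.5.1.1 per the file headers (10.7 per the submitters' processing notes) and not normalized between arrays. The authors' deposited value table is on a log2 scale. Its differences between arrays lay within 0.01 of those of the log2 processed signal in 99.8% of cases, so its scale and direction are known. Each probe in it is centred, and its column medians were -0.28, 0.10, -0.03 and 0.08.

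Levels here are the log2 processed signal minus the 75th percentile of each array. Outlier spots were left out and repeated spots averaged. Probes were named through a RefSeq table of GRCm38.p6, and 24375 of 41174 (59.2%) matched 1 symbol. The headers name an older mouse build, so probe coordinates are left out. Each gene was represented by its brightest probe. A probe saturated or not well above background on 1 array gave a bound where the difference pointed the way the bound allows, and otherwise no value. A probe with such a fault on both arrays had none. With 1 array per group, no p-value is given, and 1 array per group limits the precision. The code that makes the calls was tested on simulated data with spot noise alone, which says nothing about variation between animals. Members and lists were chosen with earlier results of these data known. Pathway genes named were up to 3 per role by size of the difference, plus any past 2-fold as a bound alone. Python 3.11.15, numpy 2.4.6, pandas 2.3.3, matplotlib 3.10.9, R 4.3.3 and limma 3.58.1 were used. Alternatives were normexp (offset 50), quantile, cyclic loess, median centring, spike-in scaling, no filter, a signal minimum of 200, a mean over probes, outlier spots kept, the authors' table and a rule of 3 scanner errors.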

Additional observations from a re-analysis of the deposited data

Results flagged for a closer look

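Among the members and the heme and iron genes named above, 5 passed 2-fold with treatment in opposite directions in the tail and the back. Slc39a8 and Flvcr2, of the same pathway list but not among those named, also did so, higher in the tail and lower in the back. How many of all genes did so was not counted. The pathway genes were named by the size of their difference, which favours genes past 2-fold. The count of 5 therefore cannot show whether opposite responses were more frequent here than among all genes. With 1 array per group, the difference between the responses was not tested. For Slc40a1 the back response minus the tail response was -4.68 (2.02 in the tail, -2.66 in the back). For Steap2 it was 4.403 (-1.02 and 3.38), for Heph -3.41 (1.06 and -2.34), for Fbxl5 2.73 (-1.16 and 1.58) and for Ireb2 2.23 (-1.22 and 1.01). The tail values of Slc40a1 and Heph turned negative with spike-in scaling, and those of Steap2 and Ireb2 turned positive with a normexp correction that distorted the tail treated array. With that array repaired, Steap2 stood at 0.31 and Ireb2 at -0.50. The Heph tail value was within 2-fold with cyclic loess (0.82), and the Ireb2 back value also (0.97).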

How the results depend on the processing

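No paired analysis was possible because each group had 1 array. For the same reason no replicate could be left out. The number of members past 2-fold in the tail was 1, and it was 2 with quantile normalization (Slc40a1 higher, Hmox1 lower as a bound), 2 without the filter on dim or saturated probes and 8, all lower, with spike-in scaling. In the back it was 4 in every setting run, with Blvrb lower in place of Ftl1 higher under median centring and spike-in scaling. Between untreated skins it was 3, and 2 to 4 over the settings, and Hamp was lost with a signal minimum of 200, Slc11a2 with cyclic loess and spike-in scaling and Slc48a1 with the mean over probes. Spike-in scaling, on 192 spots, moved the median of all genes by -1.96 in the tail and -0.44 in the back, and cyclic loess and quantile normalization moved it by -0.40 and -0.29 in the tail. The share of calls that were higher in the tail was 80.6%, and 1.26% with spike-in scaling, 54.6% with cyclic loess, 59.0% with quantile normalization and 91.5% with normexp. In the back it was 51.8%, and 20.7% with spike-in scaling. Between untreated skins it was 61.4%, and 46.9% with quantile normalization, 47.7% with cyclic loess and 22.7% with spike-in scaling. With spike-in scaling the tail differences became -0.047 for Slc40a1, -0.49 for Slc11a1, -1.004 for Heph, -0.71 for Ftmt, -0.49 for Hamp2, -0.67 for Erfe and -0.91 for Slc25a37. With normexp they became 2.76 for Steap2 and 1.40 for Ireb2. On the tail treated array 5 spots had local background more than 100 above their signal, and spots of median net signal 100 stood at 741 after normexp. With those spots repaired, a setting added after the data were seen, they stood at 106, Steap2 at 0.31 and Ireb2 at -0.50. Over all settings, 727 of 959 values for named genes moved by less than the scanner error, 222 moved by more and 10 reversed. Some settings hardly change the values, and with the authors' table, outlier spots kept or median centring 90 of 90 moved by less than that error. With quantile normalization 60 of 90 did, with cyclic loess 62 and with spike-in scaling 2. The cause of these changes was not tested. Saturation on the bright tail control array limits Hmox1 and Fth1, and low signal limits Hamp.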
